A study of Homo sapiens with 18 samples.

Results

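The 9 genes described here encode the corepressor TRIM28, the HP1 proteins CBX1, CBX3 and CBX5, the HUSH complex subunits TASOR, MPHOSPH8 and PPHLN1, and the HUSH partners MORC2 and ATF7IP. They were taken by symbol from a table of 37096 named genes, and all 9 were among the 17755 that passed the filter on low values. TRIM28 is the protein through which KRAB zinc fingers, a large class of DNA-binding repressors, recruit the histone H3 lysine 9 methyltransferase SETDB1. HP1 proteins bind the methylated lysine through a chromodomain, and HUSH spreads the mark over retroelements and other long, intron-poor sequences. In cultured human cells these proteins help to repress KRAB zinc finger gene clusters, transposable elements and integrated transgenes. In GENCODE 29 (GRCh38) TRIM28 lies at chr19:58544091-58550722, CBX1 at chr17:48070052-48101521, CBX3 at chr7:26201162-26213356 and CBX5 at chr12:54230940-54280133. TASOR, listed there as FAM208A, lies at chr3:56620133-56683237, MPHOSPH8 at chr13:19633681-19673459, PPHLN1 at chr12:42238447-42459715, MORC2 at chr22:30925130-30968298 and ATF7IP at chr12:14365632-14502935, and all 9 are protein-coding.

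Poly-A RNA was sequenced from HEK293T cells, a transformed line from human embryonic kidney that carries the SV40 large T antigen, in 18 libraries that form 6 groups of 3. Cells labelled wild type were transfected either with MethionaseNLS, a methionine-degrading enzyme carrying a nuclear localisation signal, or with the empty pLEX vector, and were given DMSO or 5 µM Vps34-IN1 for 12 h. Vps34-IN1 inhibits the lipid kinase VPS34, the class 3 phosphoinositide 3-kinase. The groups were methionase with Vps34-IN1 at 24 h of transfection, vector with Vps34-IN1 at 24 h, methionase with DMSO at 24 h, vector with DMSO at 24 h, methionase with DMSO at 12 h and vector with DMSO at 12 h. The labels name a single cell line, a single batch, and no catalytically inactive enzyme or other foreign protein as a further control. They do not say whether the replicates were separate cultures, so p-values measure the spread between these libraries, which may be technical. Methionase is not a human gene, so its expression could not be read from the table.

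Total reads ranged from 18278586 to 20825682 per library. The HEK293T markers NEFM, NEFL and PAX2 had reads in every library, with lowest values of 5935, 2216 and 99.1 normalised reads, whereas LHX1 reached only 14.9 and SOX11 was at 0 in 3 libraries. Of the markers of other cell types, CD3E was at 0 in 16 libraries, CDH5 in 15 and DCN in 9, PECAM1, LUM, ALB and APOA1 stayed at or under 20.3 normalised reads, and CD68 and COL1A1 had 59.2 to 106 and 403 to 672. Mitochondrial ribosomal RNA took 1.89 to 2.47% of the reads with methionase and Vps34-IN1, 0.985 to 1.35% with vector and Vps34-IN1, 0.938 to 2.01% with methionase and DMSO at 24 h, and 0.480 to 0.657% with vector and DMSO at 24 h. At 12 h it took 0.324 to 0.383% with methionase and 0.206 to 0.292% with vector. The size factors that scale the reads lay between 0.892 and 0.985 in the 3 treated groups at 24 h, and between 1.04 and 1.10 in the other 9 libraries. The part of these differences in the results below was not tested.

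Levels below are normalised reads, that is, reads divided by the library's size factor. A difference is in log2 units of the deposited variance-stabilised values, with its standard error (SE), and a gene was called when limma's adjusted p was below 0.05. Per kilobase of annotated exon, the 9 genes spanned a wide range. In vector cells with DMSO at 24 h, TRIM28 stood at 2659 ± 51.1 normalised reads per kb (SD, n = 3), CBX1 at 1934 ± 37.1, CBX3 at 1328 ± 48.9 and CBX5 at 411 ± 44.3. MORC2 followed with 299.6 ± 9.71 reads per kb, TASOR with 248.0 ± 10.6, MPHOSPH8 with 102 ± 12.1, PPHLN1 with 94.9 ± 0.656 and ATF7IP with 69.96 ± 2.43. In this order, MPHOSPH8 and PPHLN1 were the neighbours whose libraries overlapped. The level of a gene per kb rests on the union of all its annotated exons, which is longer than a single transcript. This union was 15040 bases for CBX5, 13189 for ATF7IP and 12155 for PPHLN1, against 3087 for CBX1. The order given here, and the shares and sums per kb below, depend on these lengths and need not be the order of transcript abundance. In both methionase groups at 24 h, CBX1 took the first place, with 2108 ± 52.6 reads per kb with Vps34-IN1 and 2151 ± 130.2 with DMSO, and its libraries overlapped those of TRIM28.

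**Figure D1:**
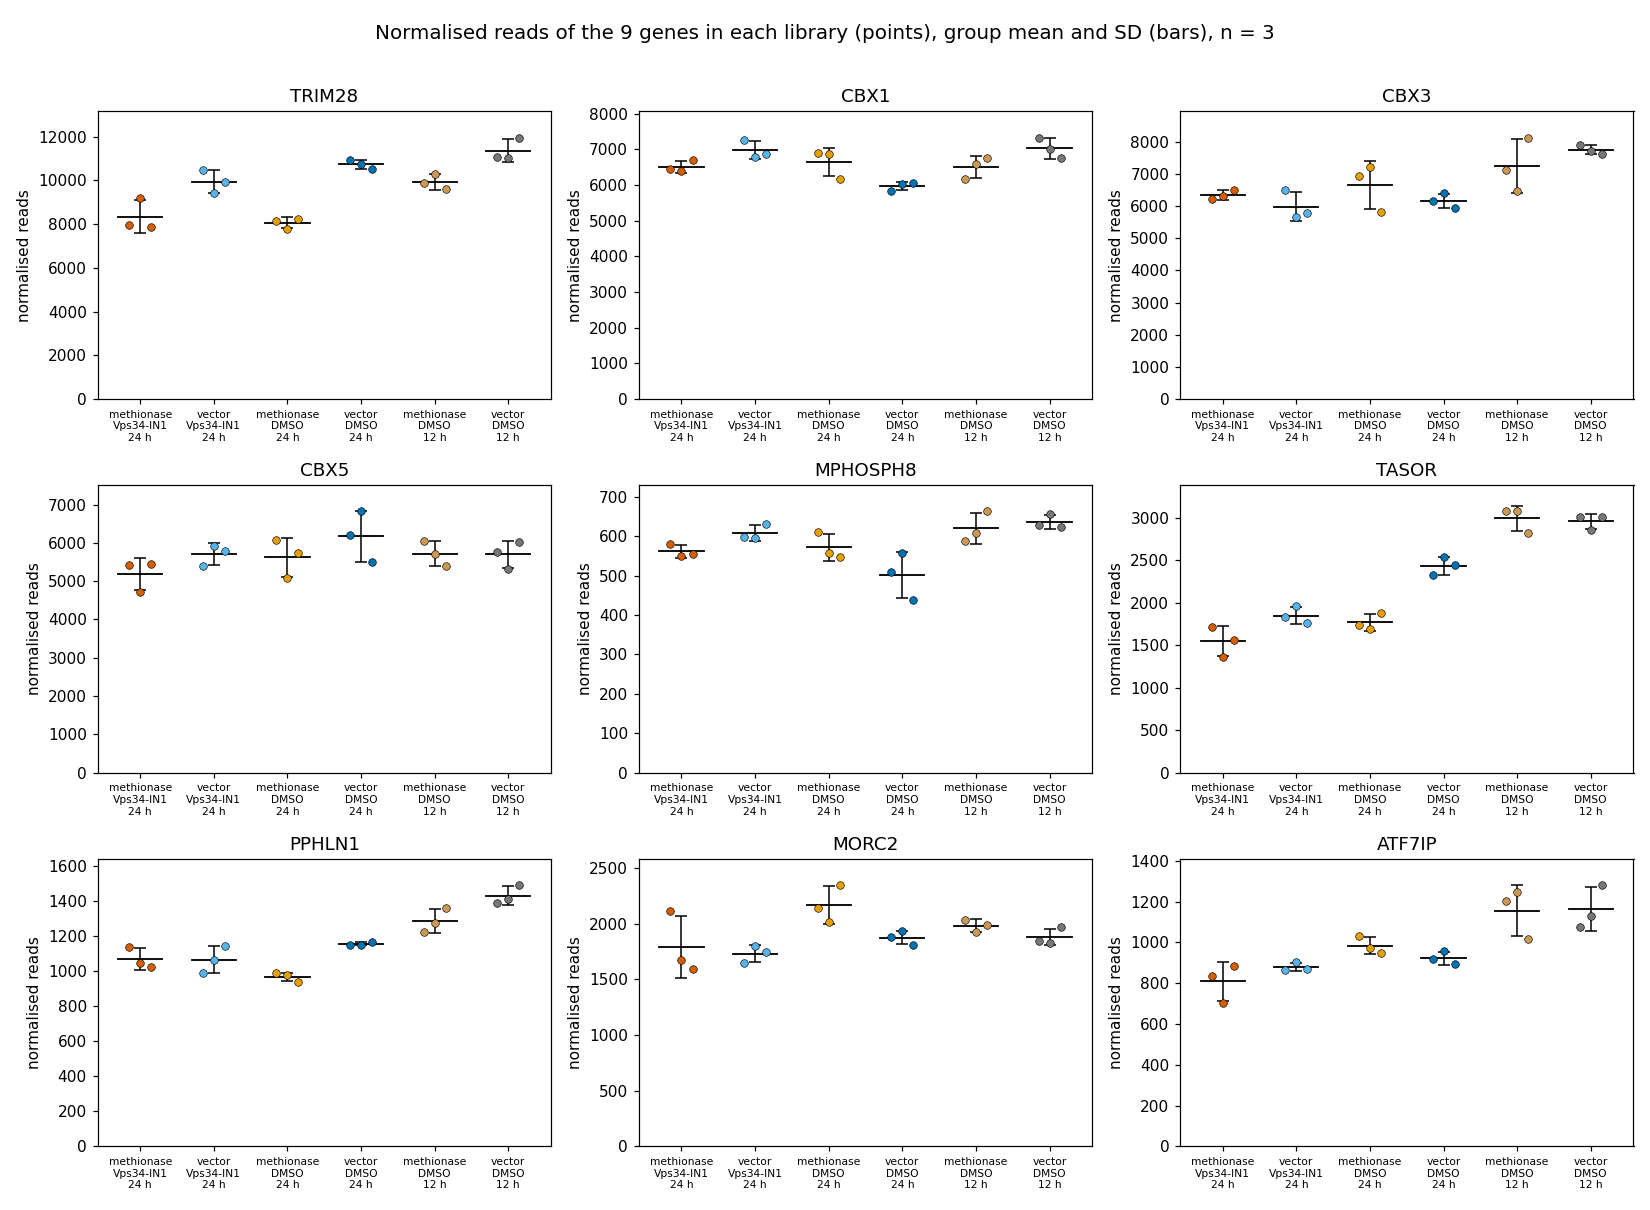
Normalised reads (y axis, from 0) of each of the 9 genes in each of the 18 libraries, with 1 panel per gene and the 6 groups along the x axis; points are libraries, long bars the group mean and error bars the SD (n = 3). TRIM28 lay between 7777 and 9196 in the 6 methionase libraries at 24 h and between 9402 and 11950 in the other 12, and TASOR stepped down to between 1363 and 1962 in the 3 treated groups at 24 h.

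TRIM28, the scaffold between KRAB zinc fingers and SETDB1, was lower with methionase at 24 h, both with and without the inhibitor. In DMSO, TRIM28 had 8155, 7777 and 8243 normalised reads with methionase, against 10920, 10760 and 10510 with vector. All methionase libraries lay below all vector libraries. The difference was -0.41 ± 0.06 log2 (SE), a fold of 0.753, with a limma adjusted p of 2.337e-05. The libraries are bulk RNA, so fewer cells with the transcript and less of it per cell cannot be told apart.

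With Vps34-IN1, TRIM28 had 7942, 9196 and 7866 normalised reads in methionase cells, against 10490, 9402 and 9930 in vector cells. The groups did not overlap, although the highest methionase library, replicate 2, came close to the lowest vector library. The difference was -0.25 ± 0.06 log2 (limma adjusted p = 0.003212). The methionase by Vps34-IN1 interaction, the difference between these 2 differences, was 0.16 ± 0.09 log2 and was not called (limma adjusted p = 0.2431), but with quantile normalization it was called (limma adjusted p = 0.0113). At 12 h, TRIM28 had 9867, 10290 and 9588 normalised reads with methionase, against 11050, 11040 and 11950 with vector. These groups also did not overlap, and the difference of -0.19 ± 0.06 log2 was not called (limma adjusted p = 0.1151). It was called when libraries were weighted by their quality or when only the groups compared entered the fit, with limma adjusted p-values of 0.0162 and 0.03248. The methionase cells had less TRIM28 at 24 h than at 12 h, a difference of -0.30 ± 0.06 log2 (limma adjusted p = 0.0008309), while the vector cells differed by -0.08 ± 0.06 log2 between the same times (limma adjusted p = 0.4659). The methionase by time interaction was -0.22 ± 0.09 log2 and was not called (limma adjusted p = 0.1324), but quantile normalization and quality weights each called it. The inhibitor itself left differences of 0.04 ± 0.06 log2 in methionase cells and -0.11 ± 0.06 log2 in vector cells, neither of them called. In vector cells that difference was -0.30 log2 with quantile normalization (limma adjusted p = 0.0004369), and quality weights also called it.

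The HP1 genes encode the alpha (CBX5), beta (CBX1) and gamma (CBX3) readers of methylated H3 lysine 9. Without division by length, CBX5 and CBX1 lay close, at 6177 and 5970 normalised reads in vector cells with DMSO at 24 h. Of all reads per kb on the 3 genes, CBX1 held 52.1 to 57.5% in the 6 group means, CBX3 32.8 to 38.6% and CBX5 8.77 to 11.2%. These shares depend on the unequal exon unions of the 3 genes. Their summed level was 3819 ± 100.4 reads per kb with methionase and Vps34-IN1, 3927 ± 163 with vector and Vps34-IN1, 3958 ± 281 with methionase and DMSO at 24 h, and 3673 ± 93.3 with vector and DMSO at 24 h (SD, n = 3 each). At 12 h the sum was 4044 ± 219 with methionase and 4325 ± 119 with vector.

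CBX1 was the HP1 gene whose response to methionase differed with the inhibitor and with time. At 24 h in DMSO it had 6886, 6861 and 6178 normalised reads with methionase, against 5841, 6012 and 6058 with vector. The methionase libraries were all higher, and replicate 3 was the closest to the vector libraries. The difference was 0.15 ± 0.06 log2 (limma adjusted p = 0.04611). This call was lost without methionase replicate 1 or 2 or without any one of the 3 vector libraries, with limma adjusted p-values of 0.06748 to 0.1515, and under 5 other settings. With Vps34-IN1, CBX1 had 6458, 6376 and 6689 normalised reads in methionase cells, against 7265, 6788 and 6861 in vector cells. The methionase libraries were now all lower, and the difference of -0.10 ± 0.06 log2 was not called (limma adjusted p = 0.1958). The interaction was -0.25 ± 0.08 log2 (limma adjusted p = 0.03494). It was not called without methionase or vector replicate 1 or 2 with DMSO, methionase replicate 1 or 2 with Vps34-IN1 or vector replicate 1 with Vps34-IN1 (limma adjusted p = 0.05513 to 0.08693). With quantile normalization it was -0.14 log2 and not called (limma adjusted p = 0.1808).

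The inhibitor raised CBX1 in vector cells. The 7265, 6788 and 6861 normalised reads with Vps34-IN1 stood against 5841, 6012 and 6058 with DMSO, with no overlap. The difference was 0.22 ± 0.06 log2 (limma adjusted p = 0.004344), and it was 0.08 log2 and not called with quantile normalization. In methionase cells the difference was -0.03 ± 0.06 log2 (limma adjusted p = 0.8287). The vector libraries with DMSO at 24 h enter several of these comparisons, so the comparisons are not independent of each other. Those libraries were also lower than the vector libraries at 12 h, which had 7325, 7016 and 6741 normalised reads, a difference of -0.23 ± 0.06 log2 (limma adjusted p = 0.01327). That call was lost without vector replicate 1 at 12 h (limma adjusted p = 0.05604) and without vector replicate 1 at 24 h (limma adjusted p = 0.07188). In methionase cells, CBX1 had 6156, 6590 and 6748 normalised reads at 12 h, which overlapped the libraries at 24 h, and the methionase by time interaction was 0.26 ± 0.08 log2 (limma adjusted p = 0.04174). The interaction was not called without any one of the vector libraries at 24 h, vector replicate 1 or 2 at 12 h, or methionase replicate 1 or 2 at either time (limma adjusted p = 0.05495 to 0.1318). With quantile normalization it was 0.16 log2 and not called (limma adjusted p = 0.1725).

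CBX3, an HP1 protein also found over the bodies of active genes, fell between 12 h and 24 h in vector cells and did not pass the test in any comparison of treatments. It had 6149, 6397 and 5944 normalised reads with vector and DMSO at 24 h, against 7903, 7716 and 7626 at 12 h. The groups did not overlap, and the difference was -0.33 ± 0.08 log2 (limma adjusted p = 0.009341). Methionase cells with DMSO spread from 5806 to 7206 normalised reads at 24 h and from 6469 to 8129 at 12 h. The difference there was -0.12 ± 0.08 log2 (limma adjusted p = 0.233), and the interaction with time was 0.21 ± 0.11 log2 (limma adjusted p = 0.2541).

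CBX5, an HP1 protein of constitutive heterochromatin, was called in none of the 9 comparisons (7 of 2 groups and 2 interactions). Its group means ranged from 5191 ± 418 normalised reads with methionase and Vps34-IN1 to 6177 ± 667 with vector and DMSO at 24 h (SD, n = 3). The differences lay between -0.14 and 0.11 log2 and the limma adjusted p-values between 0.1855 and 0.9824. Its SD exceeded that of CBX1 in each of the 6 groups, with for example 6209, 6827 and 5495 normalised reads with vector and DMSO at 24 h. With quantile normalization the inhibitor's difference in vector cells was -0.25 log2 and was called (limma adjusted p = 0.02087).

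TASOR, MPHOSPH8 and PPHLN1 form the core of the HUSH complex. TASOR is the scaffold, MPHOSPH8 carries the chromodomain that binds methylated H3 lysine 9, and PPHLN1 (periphilin) binds RNA. TASOR and MPHOSPH8 were called in opposite directions with Vps34-IN1 in vector cells, although all 3 genes were called lower with time there. The 250 bases before the RefSeq start of each gene are shown, 5′ to 3′ on the gene's strand (RefSeq, GRCh38.p14). They are chr3:56683266-56683515 on the minus strand for TASOR, chr13:19633409-19633658 on the plus strand for MPHOSPH8 and chr12:42325917-42326166 on the plus strand for PPHLN1. Capitals mark matches, on either strand, to the GC box GGGCGG, the CCAAT box CCAAT and the ETS core CCGGAAG.
TASOR: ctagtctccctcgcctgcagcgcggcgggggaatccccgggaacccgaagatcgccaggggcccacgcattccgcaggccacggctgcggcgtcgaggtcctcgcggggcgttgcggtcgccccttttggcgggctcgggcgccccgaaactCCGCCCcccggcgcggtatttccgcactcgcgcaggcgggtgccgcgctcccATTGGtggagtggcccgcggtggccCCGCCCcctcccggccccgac
MPHOSPH8: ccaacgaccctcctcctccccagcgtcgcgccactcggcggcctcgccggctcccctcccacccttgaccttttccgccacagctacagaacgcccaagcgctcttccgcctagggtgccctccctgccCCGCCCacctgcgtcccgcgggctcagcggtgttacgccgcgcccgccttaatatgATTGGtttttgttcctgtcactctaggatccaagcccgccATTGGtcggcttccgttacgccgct
PPHLN1: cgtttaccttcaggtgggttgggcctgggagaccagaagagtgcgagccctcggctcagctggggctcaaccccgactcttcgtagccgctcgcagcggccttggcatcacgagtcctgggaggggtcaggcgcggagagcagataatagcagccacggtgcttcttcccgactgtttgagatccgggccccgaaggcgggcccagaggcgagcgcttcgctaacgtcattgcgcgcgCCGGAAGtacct
The TASOR stretch held 2 GC boxes and 1 CCAAT box, that of MPHOSPH8 held 1 GC box and 2 CCAAT boxes, and that of PPHLN1 held 1 ETS core and neither of the other motifs. Of all 35116 RefSeq promoter stretches of this length, 42.6% held a GC box, 32.0% a CCAAT box and 8.52% an ETS core. The E-box CACGTG (6.34% of all promoters), the NRF1 site (1.03%, GCGC and GCGC with AT between them), the cAMP response element TGACGTCA (1.65%) and the ER stress element (0.0740%, CCAAT and CCACG spaced by 9 bases) were searched too and had no match in these 3 stretches. The GC content was 76.4% for TASOR, 66.4% for MPHOSPH8 and 64.8% for PPHLN1, against a median of 58.0% over all promoters. The RefSeq start of PPHLN1 lies inside the gene as GENCODE 29 draws it, downstream of its first annotated start.

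TASOR was lower with methionase at 24 h, lower with Vps34-IN1 in vector cells, and lower at 24 h than at 12 h. In DMSO at 24 h it had 1739, 1695 and 1882 normalised reads with methionase, against 2328, 2537 and 2443 with vector. The methionase libraries lay well below all vector libraries. The difference was -0.44 ± 0.07 log2, a fold of 0.736 (limma adjusted p = 2.255e-05). Vps34-IN1 gave vector cells 1830, 1962 and 1760 normalised reads, against the 2328, 2537 and 2443 with DMSO. Again no library overlapped, and the difference was -0.38 ± 0.07 log2 (limma adjusted p = 0.0001187). The inhibitor and methionase comparisons share their vector and DMSO libraries.

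With both treatments, TASOR had 1718, 1363 and 1563 normalised reads, the lowest group of the 6. Replicate 2 was the lowest library of all 18, and the highest replicate overlapped the methionase group without inhibitor. Against vector with Vps34-IN1 the difference was -0.25 ± 0.07 log2 (limma adjusted p = 0.006356), and this call was lost with quantile normalization (-0.12 log2, limma adjusted p = 0.2202) and without that replicate 2 (-0.17 log2, limma adjusted p = 0.05716). Against methionase with DMSO it was -0.19 ± 0.07 log2 and was not called (limma adjusted p = 0.09364), but it was called without replicate 1 of the group with both treatments (-0.26 log2, limma adjusted p = 0.021). The methionase by Vps34-IN1 interaction was 0.19 ± 0.10 log2 (limma adjusted p = 0.1754), and it was called with quantile normalization (limma adjusted p = 0.04905) and without replicate 2 of the group with both treatments (limma adjusted p = 0.03217).

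TASOR did not differ detectably between methionase and vector at 12 h. It had 3077, 3079 and 2827 normalised reads with methionase, against 3015, 2855 and 3006 with vector, and the groups overlapped, with a difference of 0.02 ± 0.07 log2 (limma adjusted p = 0.9305). Between 12 h and 24 h it fell in methionase cells, with a difference of -0.73 ± 0.07 log2 and a fold of 0.603 (limma adjusted p = 2.961e-08). In vector cells the difference between these times was -0.27 ± 0.07 log2 (limma adjusted p = 0.01389). The vector call was lost with quantile normalization (limma adjusted p = 0.06288), without vector replicate 3 at 12 h (0.06282) and without vector replicate 1 at 24 h (0.08264). The methionase by time interaction was -0.46 ± 0.10 log2 (limma adjusted p = 0.003575) and was called under every alternative run.

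PPHLN1 was lower with methionase at 24 h in DMSO and not with the inhibitor present. In DMSO it had 985, 974 and 939 normalised reads with methionase, against 1150, 1148 and 1163 with vector. The vector libraries lay close together, and the groups did not overlap. The difference was -0.24 ± 0.06 log2 (limma adjusted p = 0.003403). With Vps34-IN1, PPHLN1 had 1136, 1046 and 1021 normalised reads in methionase cells, against 989.5, 1063 and 1141 in vector cells. These groups overlapped throughout, with a difference of 0.004 ± 0.06 log2 (limma adjusted p = 0.964), and the interaction was 0.24 ± 0.09 log2 (limma adjusted p = 0.04764). That interaction was not called without any one of the 6 libraries with DMSO, methionase replicate 1 with Vps34-IN1, or vector replicate 1 or 2 with Vps34-IN1 (limma adjusted p = 0.05626 to 0.1308). Between 12 h and 24 h, PPHLN1 fell in both, with differences of -0.38 ± 0.06 log2 in methionase cells (limma adjusted p = 2.87e-05) and -0.29 ± 0.06 log2 in vector cells (limma adjusted p = 0.003872). At 12 h it had 1224, 1274 and 1360 normalised reads with methionase, against 1385, 1412 and 1490 with vector. The groups did not overlap, and the difference of -0.14 ± 0.06 log2 was not called (limma adjusted p = 0.2187), though library quality weights called it (limma adjusted p = 0.03603).

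MPHOSPH8 went the other way from TASOR with the inhibitor in vector cells. In methionase cells its difference with the inhibitor was -0.02 ± 0.07 log2 and was not called (limma adjusted p = 0.8874). With Vps34-IN1 vector cells had 597.2, 596.6 and 632 normalised reads, against 509.9, 557 and 439 with DMSO. The inhibitor libraries were all higher, and DMSO replicate 3 was the lowest of all 18 libraries. The difference was 0.25 ± 0.07 log2 (limma adjusted p = 0.007486), and without that replicate 3 it was 0.17 log2 and not called (limma adjusted p = 0.07772). With methionase and DMSO at 24 h, MPHOSPH8 had 612, 557.2 and 548 normalised reads. The lowest of these, replicate 3, lay below vector replicate 2, so the groups overlapped, and the difference of 0.17 ± 0.07 log2 was not called (limma adjusted p = 0.06395). It was called with quantile normalization (0.24 log2, limma adjusted p = 0.008213), with equal library medians (0.21 log2, limma adjusted p = 0.02403) and without vector replicate 2 (0.24 log2, limma adjusted p = 0.01989). In vector cells MPHOSPH8 was lower at 24 h than at 12 h, where it had 629, 656 and 623.5 normalised reads, a difference of -0.30 ± 0.07 log2 (limma adjusted p = 0.007869). That call too was lost without vector replicate 3 at 24 h (limma adjusted p = 0.063). With both treatments MPHOSPH8 had 581, 548.9 and 554.7 normalised reads, all below the 597.2, 596.6 and 632 of vector with Vps34-IN1. That difference was -0.10 ± 0.07 log2 and was not called (limma adjusted p = 0.2672). The methionase by Vps34-IN1 interaction was -0.27 ± 0.10 log2 (limma adjusted p = 0.05695), and it was called with the stricter filter on low values (limma adjusted p = 0.04914) and without methionase replicate 3 with DMSO (limma adjusted p = 0.04907) or vector replicate 2 with DMSO (limma adjusted p = 0.02149).

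The ratio of TASOR to MPHOSPH8 reads was lower in the 3 treated groups at 24 h than in the other 3 groups. TASOR had 2.75 ± 0.243 reads for each MPHOSPH8 read with methionase and Vps34-IN1, 3.05 ± 0.253 with vector and Vps34-IN1, and 3.11 ± 0.301 with methionase and DMSO at 24 h (SD, n = 3 each). In the other groups it had 4.89 ± 0.578 with vector and DMSO at 24 h, 4.85 ± 0.516 with methionase at 12 h and 4.66 ± 0.262 with vector at 12 h. The highest of the 9 treated libraries at 24 h stood at 3.43 and the lowest of the other 9 at 4.26. This ratio was chosen after the values of both genes were seen and was not tested. Summed over the 3 core genes, the level was 360 ± 25.3 reads per kb with both treatments, 400.1 ± 9.87 with vector and Vps34-IN1, 377 ± 8.98 with methionase and DMSO at 24 h and 445 ± 18.2 with vector and DMSO at 24 h. At 12 h it was 537 ± 4.59 with methionase and 548 ± 7.67 with vector.

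**Figure D2:**
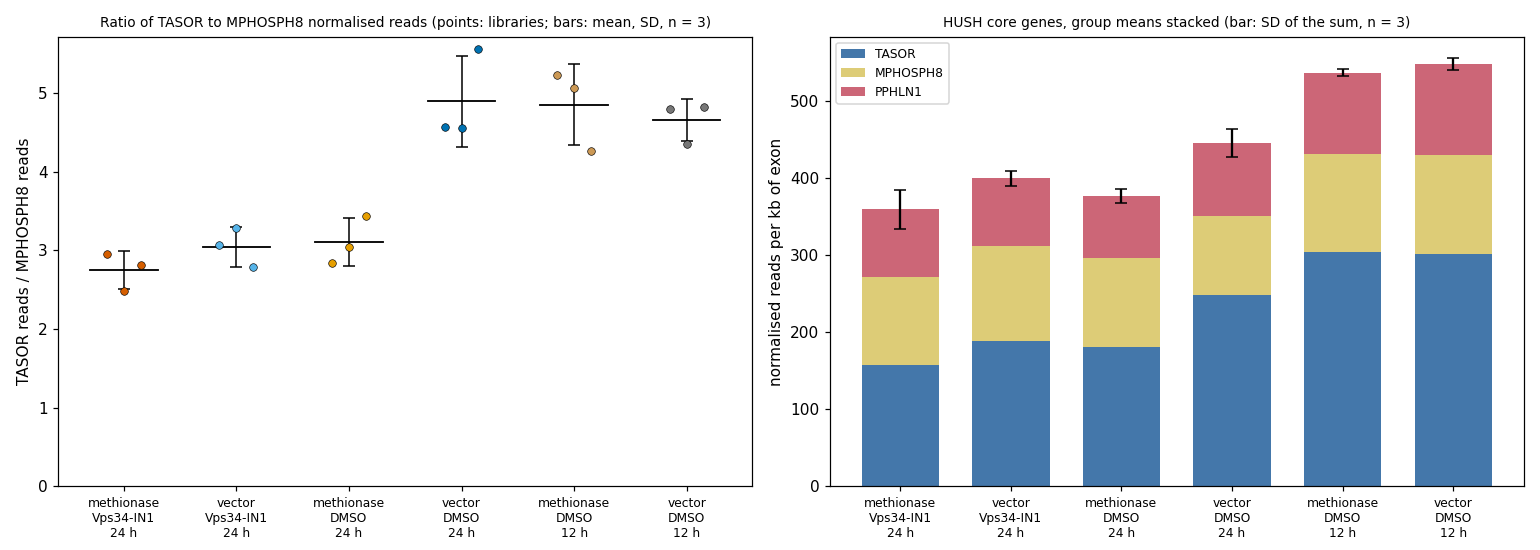
Left, the ratio of TASOR to MPHOSPH8 normalised reads in each library (points) with group mean and SD (bars, n = 3); right, the group means of TASOR, MPHOSPH8 and PPHLN1 in normalised reads per kb of exon, stacked, with the SD of their sum. The 6 groups run along both x axes; the ratio was between 2.48 and 3.43 in the 9 treated libraries at 24 h, and the summed level was lowest, at 360, with both treatments.

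MORC2 is the ATPase that HUSH recruits to compact chromatin, and ATF7IP is the partner that stabilises SETDB1 in the nucleus. MORC2 had 2143, 2016 and 2350 normalised reads with methionase and DMSO at 24 h, against 1877, 1934 and 1813 with vector. The methionase libraries were all higher, by 0.20 ± 0.08 log2 (limma adjusted p = 0.04145). The call was lost without methionase replicate 1 or 3 or without any one of the 3 vector libraries, with limma adjusted p-values of 0.05615 to 0.1867, and in the fits with no filter and with no variance trend. With both treatments MORC2 had 2111, 1678 and 1591 normalised reads, against 2143, 2016 and 2350 with methionase alone. Replicate 1 stood apart from the other two and overlapped the methionase libraries without inhibitor. The difference was -0.27 ± 0.08 log2 (limma adjusted p = 0.02994). It was not called without methionase replicate 1 or 3 with DMSO, or without replicate 2 or 3 with both treatments. The limma adjusted p-values were then 0.05846 to 0.1391. No filter, equal medians, no variance trend, quality weights and only the groups compared each lost the call too (limma adjusted p = 0.0546 to 0.2138). The methionase by Vps34-IN1 interaction was -0.16 ± 0.11 log2 (limma adjusted p = 0.3119), and it was called without replicate 1 with both treatments (-0.28 log2, limma adjusted p = 0.03241). Vector cells had 1649, 1804 and 1745 normalised reads with Vps34-IN1, all below the 1877, 1934 and 1813 with DMSO, and that difference of -0.11 ± 0.08 log2 was not called (limma adjusted p = 0.2721). At 12 h, MORC2 averaged 1985 ± 54.2 normalised reads with methionase and 1881 ± 75.5 with vector (SD, n = 3 each).

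ATF7IP had 837, 703.9 and 886 normalised reads with both treatments, against 1029, 970.8 and 948 with methionase and DMSO at 24 h. All libraries with the inhibitor were lower, and replicate 2 was the lowest. The difference was -0.26 ± 0.08 log2 (limma adjusted p = 0.04267). The call was lost without replicate 2 with both treatments or any single methionase library with DMSO (limma adjusted p = 0.06782 to 0.1957). No filter, equal medians, no variance trend, quality weights, only the groups compared, the replicate block and voom each lost it too. Their limma adjusted p-values were 0.05327 to 0.1932. In vector cells the inhibitor's difference was -0.06 ± 0.08 log2 (limma adjusted p = 0.5682). ATF7IP was lower at 24 h than at 12 h, with 917.8, 956.9 and 893.5 against 1077, 1129 and 1282 normalised reads in vector cells. These did not overlap, and the difference was -0.31 ± 0.08 log2 (limma adjusted p = 0.01481), a call lost without vector replicate 3 at 12 h (0.1108), replicate 1 at 24 h (0.06102) or replicate 3 at 24 h (0.05615). In methionase cells it was -0.21 ± 0.08 log2 (limma adjusted p = 0.0355). This call was lost without replicate 1 or 2 at 12 h or replicate 2 or 3 at 24 h (limma adjusted p = 0.08119 to 0.1742). It was also lost with no filter, quantile normalization, equal medians or no variance trend (limma adjusted p = 0.051 to 0.09722).

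Counted over the 9 genes, methionase against vector at 24 h in DMSO gave 2 called higher and 3 called lower, where 39.2% of all tested genes were called, 18.1% higher and 21.1% lower. With Vps34-IN1 present the same comparison gave 0 higher and 2 lower, where 39.5% of all genes were called, 17.3% higher and 22.2% lower. Vps34-IN1 against DMSO in vector cells gave 2 higher and 1 lower, where 40.1% of all genes were called, 20.2% higher and 19.9% lower. With quantile normalization that count was 1 higher and 4 lower, where 3299 of the 17755 tested genes were called higher and 3500 lower. In methionase cells the inhibitor gave 0 higher and 2 lower, where 7.93% of all genes were called, 2.95% higher and 4.98% lower. At 24 h against 12 h, 0 of the 9 were called higher and 6 lower in vector cells, where 11.5% of all genes were called, 4.61% higher and 6.88% lower. In methionase cells 0 were called higher and 4 lower, where 39.8% of all genes were called, 18.4% higher and 21.3% lower. As a share of the 9 genes, the called members were 55.6% with methionase at 24 h in DMSO, 22.2% with methionase under Vps34-IN1, 66.7% between the times in vector cells and 44.4% between the times in methionase cells. At 12 h, methionase against vector gave 0 called members with limma and 0 with voom on the recovered counts, and 2 of the 9 had an unadjusted p below 0.05. There 2.17% of all genes were called, 0.681% higher and 1.49% lower. The methionase by Vps34-IN1 interaction gave 1 member higher and 1 lower, where 21.8% of all genes were called, 9.92% higher and 11.9% lower. With quantile normalization it gave 3 and 0, where 1848 of the 17755 tested genes were called higher and 1800 lower. The methionase by time interaction gave 1 member higher and 1 lower, where 11.7% were called, 5.33% higher and 6.33% lower. With quantile normalization it gave 0 and 2, where 978 of the 17755 were called higher and 1151 lower.

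The groups did not overlap for 5 of the 9 genes with methionase at 24 h in DMSO, against 48.6% of all genes, and for 4 with methionase under Vps34-IN1, against 44.6%. For the inhibitor they did not overlap for 6 in vector cells, against 52.4%, and for 2 in methionase cells, against 19.6%. Between 24 h and 12 h they did not overlap for 7 in vector cells, against 36.1%, and for 3 in methionase cells, against 50.0%. The count was 2 for methionase at 12 h, against 29.5%. The median difference of the 9 genes was 0.08 log2 with methionase at 24 h in DMSO and -0.27 log2 between 24 h and 12 h in vector cells, beside medians over all genes of 0.01 and 0.002 log2.

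**Figure D3:**
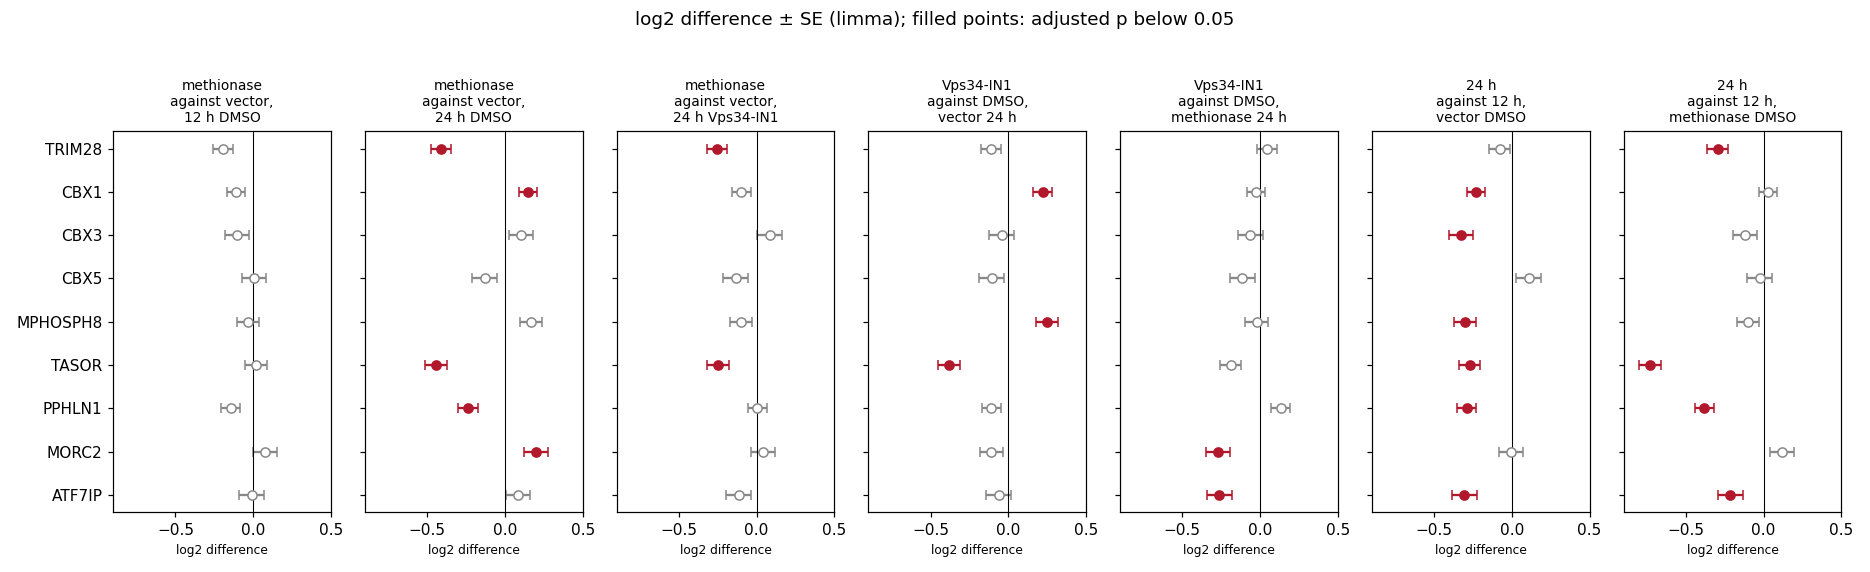
Difference of each gene, down the page, on the log2 scale, first group minus second, with its SE from limma, in the 7 comparisons of 2 groups; filled points have an adjusted p below 0.05. TRIM28 and TASOR lie left of 0 in both comparisons of methionase with vector at 24 h, and 6 of the 9 genes are filled and left of 0 for 24 h against 12 h in vector cells.

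The wider pathway was described with 8 lists of 106 genes, of which 96 were tested. Over all tested genes, methionase against vector at 24 h in DMSO had 18.1% called higher and 21.1% lower, the same comparison under Vps34-IN1 17.3% and 22.2%, and the inhibitor in vector cells 20.2% and 19.9%. At 24 h in DMSO, methionase cells had 2 of 22 KRAB zinc finger genes higher and 9 lower than vector cells, with a median difference of -0.21 log2. ZNF268 had 136 ± 18.4 normalised reads with methionase, against 321 ± 19.4 with vector (SD, n = 3 each), a difference of -0.91 ± 0.08 log2 (limma adjusted p = 7.464e-09). Under Vps34-IN1, none of the 22 was higher and 11 were lower with methionase than with vector, with a median of -0.21 log2. The inhibitor in vector cells gave 4 higher and 6 lower, with a median of 0.01 log2. ZNF695 was among those higher, with 179 ± 14.8 normalised reads with Vps34-IN1 against 93.3 ± 12.4 with DMSO.

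Of 8 tested H3 lysine 9 methyltransferases and SETDB1 cofactors, 3 were higher and 2 lower with methionase at 24 h in DMSO, with a median of -0.03 log2, where 39.2% of all tested genes were called. SETDB1, the enzyme that TRIM28 and ATF7IP bring to chromatin, had 1480 ± 52.4 normalised reads with methionase, against 1793 ± 60.3 with vector, a difference of -0.26 ± 0.05 log2 (limma adjusted p = 0.0004811). With Vps34-IN1 present, 1 was higher and 4 lower, with a median of -0.21 log2, where 39.5% of all genes were called. Among the lower was SUV39H1, with 713 ± 92.3 normalised reads with methionase against 1107 ± 52.0 with vector. The inhibitor in vector cells gave 4 higher and none lower of these 8 genes, with a median of 0.19 log2, where 40.1% of all genes were called. WIZ, a zinc finger partner of the G9a and GLP enzymes, had 2031 ± 52.2 normalised reads with Vps34-IN1, against 1458 ± 17.6 with DMSO.

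Of all tested genes, 39.2% were called for methionase in DMSO, 39.5% for methionase under Vps34-IN1 and 40.1% for the inhibitor in vector cells. Among 11 tested genes of the list named H3 lysine 9 demethylases, 1 was higher and 4 lower with methionase in DMSO (median -0.12 log2). With methionase under Vps34-IN1, 1 was higher and 8 lower (median -0.34 log2), and with the inhibitor in vector cells 5 were higher and 3 lower (median 0.08 log2). JMJD1C had 338 ± 72.8 normalised reads with methionase and Vps34-IN1, against 743 ± 62.5 with vector and Vps34-IN1. The 13 NuRD subunits, which deacetylate and remodel chromatin for TRIM28, had 2 higher and 2 lower, 1 higher and 2 lower, and 3 higher and 2 lower in the same 3 comparisons, with medians of 0.01, 0.05 and -0.03 log2, so that 30.8, 23.1 and 38.5% of them were called. CHD3, a remodelling subunit, had 4129 ± 459 normalised reads with methionase at 24 h in DMSO, against 3122 ± 177 with vector (0.39 ± 0.07 log2, limma adjusted p = 6.285e-05). HDAC1 had 6271 ± 200.2 normalised reads with methionase at 24 h in DMSO, against 7813 ± 396 with vector. Of 13 tested TRIM28 relatives and regulators, 3 were higher and 3 lower, 3 higher and 4 lower, and 4 higher and 1 lower, with medians of -0.04, -0.04 and 0.08 log2. SENP7, a SUMO protease that acts on TRIM28 and binds HP1, averaged 633 normalised reads with methionase in DMSO, against 408 with vector. Its difference was 0.54 ± 0.07 log2 (limma adjusted p = 3.67e-06). Among the lower was TRIM33, with 1001 ± 39.7 normalised reads against 1300 ± 33.5 in the same groups. The TRIM33 difference was -0.35 ± 0.07 log2 (limma adjusted p = 0.000192).

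Against the same shares of all genes, 39.2, 39.5 and 40.1%, the HP1-binding list had 53.3, 46.7 and 60.0% called, the HUSH-associated list 57.1, 42.9 and 42.9%, and the other CBX list 71.4, 57.1 and 71.4%. Among 15 HP1-binding proteins, 2 were higher and 6 lower with methionase in DMSO, 1 higher and 6 lower with methionase under Vps34-IN1, and 5 higher and 4 lower with the inhibitor in vector cells, with medians of -0.02, -0.08 and 0.05 log2. LBR, which ties HP1 to the nuclear envelope, had 3328 ± 102 normalised reads with methionase in DMSO, against 4973 ± 81.0 with vector. ATRX, a remodeller that binds HP1, was among the higher, with 1643 ± 209.5 normalised reads against 1153 ± 43.8 in the same groups (0.47 ± 0.09 log2, limma adjusted p = 0.0002663). SMARCAD1, a remodeller that binds TRIM28, had 924 ± 55.8 against 1529 ± 46.1 in the same groups. Of 7 tested HUSH-associated and MORC genes, none was higher and 4 were lower with methionase in DMSO, 3 were lower with methionase under Vps34-IN1, and 1 was higher and 2 lower with the inhibitor in vector cells, with medians of -0.27, -0.14 and -0.13 log2. MTREX, the RNA helicase of the nuclear exosome adaptors, had 1918 ± 82.3 normalised reads with methionase in DMSO, against 2410 ± 110 with vector. Of the 7 other chromodomain CBX and CDY-like genes, most of them Polycomb subunits, none was higher and 5 were lower with methionase in DMSO, 1 was higher and 3 lower with methionase under Vps34-IN1, and 1 was higher and 4 lower with the inhibitor in vector cells, with medians of -0.46, -0.09 and -0.47 log2. In DMSO, CBX6 had 1455 ± 94.3 normalised reads with methionase, against 2581 ± 59.8 with vector. Under Vps34-IN1 it had 1252 ± 139.9 with methionase, against 1743 ± 122.8 with vector. At 12 h, 2 of the 96 list genes were called between methionase and vector, KDM3A and SUMO3, both lower, where 2.17% of all tested genes were called. The KDM3A call was lost without vector or methionase replicate 1 or 2 (limma adjusted p = 0.06694 to 0.08569), and the SUMO3 call without any one of the 6 libraries (limma adjusted p = 0.06442 to 0.2122).

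**Figure D4:**
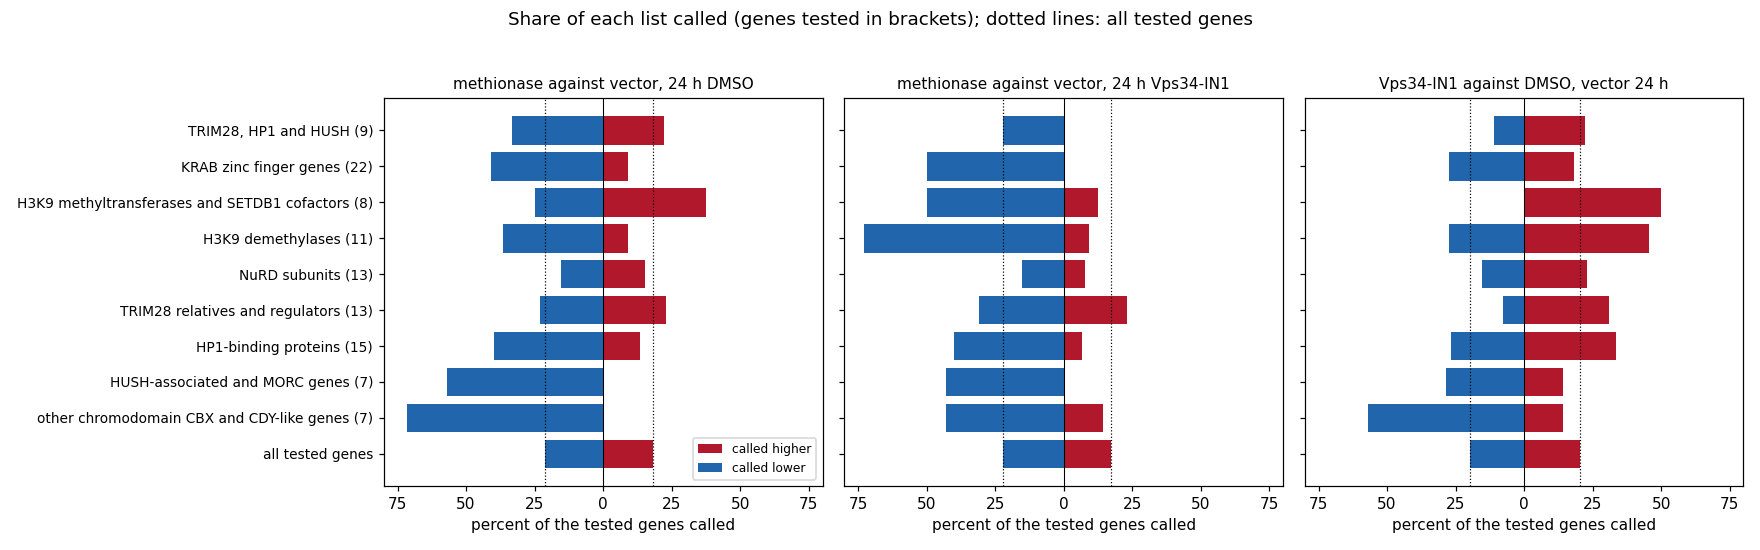
Percent of the tested genes of each list called higher (right of 0) and lower (left of 0) in 3 comparisons at 24 h, with the number tested in brackets; dotted lines mark the percent over all tested genes. Among the 9 genes, 3 were lower and 2 higher with methionase in DMSO, and 2 were lower with methionase under Vps34-IN1.

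The genes most like each of the 9 over the 18 libraries, by Pearson correlation of the log2 values, were AAR2 (r = 0.965), HIRA (0.962) and TMEM201 (0.959) for TRIM28, and IGF2BP3 (0.987), CEP192 (0.983) and TNRC6B (0.981) for TASOR. They were WASHC5 (0.962), VPS41 (0.954) and HARS1 (0.954) for PPHLN1, and LUZP1 (0.938), NOTCH2 (0.932) and MBNL3 (0.923) for ATF7IP. The first genes for the others were PAPOLA (0.893) for CBX3, SERBP1 (0.873) for CBX1, EPB41 (0.843) for MPHOSPH8, TNFSF9 (0.793) for MORC2 and MDP1 (0.789) for CBX5. Among the 9 genes themselves, TASOR went most with PPHLN1 (r = 0.829) and ATF7IP (0.822), TRIM28 with TASOR (0.718) and PPHLN1 (0.717), and CBX1 with MPHOSPH8 (0.691). The lowest value was -0.328, between CBX1 and CBX5. Only the replicates of a group share their treatment, so differences between the groups enter these values. The libraries also share their scaling and their batch, so these values describe the 18 libraries.

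Several of the 9 genes start within 2000 bases of another gene's start on the opposite strand in GENCODE 29 (GRCh38). PPHLN1 and YAF2, a Polycomb-associated gene, start 98 bases apart on opposite strands. This distance is from the first GENCODE 29 start of PPHLN1, not from the RefSeq start whose promoter stretch is shown above. With methionase at 24 h in DMSO, YAF2 had 438 ± 33.0 normalised reads, against 280.9 ± 8.08 with vector (SD, n = 3 each), a difference of 0.52 ± 0.09 log2 (limma adjusted p = 6.84e-05), beside -0.24 log2 for PPHLN1. CBX5 and HNRNPA1 start 60 bases apart, and in the same comparison HNRNPA1 differed by 0.23 ± 0.08 log2 (limma adjusted p = 0.02215), beside -0.13 log2 for CBX5. CBX3 and HNRNPA2B1 start 367 bases apart and overlap, sharing 368 exon bases on opposite strands. HNRNPA2B1 differed by 0.28 ± 0.09 log2 (limma adjusted p = 0.02062), beside 0.10 log2 for CBX3. SNX11, 1836 bases from CBX1, differed by -0.25 ± 0.08 log2 (limma adjusted p = 0.01586), beside 0.15 log2 for CBX1. TUG1, 947 bases from MORC2, differed by -0.16 ± 0.09 log2 (limma adjusted p = 0.1725), beside 0.20 log2 for MORC2. The calls of HNRNPA1 and HNRNPA2B1 were lost without vector replicate 1 or methionase replicate 1 or 2 (limma adjusted p = 0.06939 to 0.1022), and that of SNX11 without vector replicate 2 or methionase replicate 2 or 3 (limma adjusted p = 0.05809 to 0.09708). With quantile normalization all 3 calls were lost as well, and HNRNPA1 stood at -0.03 log2. With methionase under Vps34-IN1, YAF2 was lower, by a difference of -0.28 ± 0.09 log2 (limma adjusted p = 0.01778), beside 0.004 log2 for PPHLN1. That call was lost without methionase replicate 1 or vector replicate 1 with Vps34-IN1 (limma adjusted p = 0.1486 and 0.07422), with quantile normalization (limma adjusted p = 0.1091) and with only the groups compared (limma adjusted p = 0.0538). The methionase by Vps34-IN1 interaction of YAF2 was -0.80 ± 0.13 log2 (limma adjusted p = 9.674e-05) and was called under every alternative run. TUG1 was higher with methionase under Vps34-IN1, by 0.26 ± 0.09 log2 (limma adjusted p = 0.0281), beside 0.04 log2 for MORC2, a call lost without methionase replicate 1 or 3 or vector replicate 1 with Vps34-IN1 (limma adjusted p = 0.08016 to 0.1994), and also with no filter, quality weights or only the groups compared. Its interaction was 0.42 ± 0.13 log2 (limma adjusted p = 0.02224), which was lost without methionase replicate 1 with DMSO, methionase replicate 1 with Vps34-IN1 or vector replicate 1 with Vps34-IN1 (limma adjusted p = 0.06059 to 0.0783), and also with no filter or quality weights. Under Vps34-IN1, SNX11 differed by -0.44 ± 0.08 log2 (limma adjusted p = 0.0001376), beside -0.10 log2 for CBX1, and HNRNPA1 and HNRNPA2B1 each by 0.05 log2, not called.

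The libraries mark the strand, but how strand was used in counting is not stated. Reads shared by overlapping genes may have been left out or may have entered either gene. Exons of HNRNPA2B1 cover 7.93% of the exon bases of CBX3 on the other strand, those of PRICKLE1 3.60% of PPHLN1 and those of CCDC66 2.92% of TASOR. AC079601.1 covers 2.88% of PPHLN1 on the same strand. The antisense gene MORC2-AS1 covers 25.8% of MORC2 and reached at most 3.05 normalised reads in a library. Of the 11 listed pseudogenes of CBX1, CBX3 and CBX5, the largest, CBX3P2, had 0.324% of the reads of its parent.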

How the data were processed

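Per the labels' protocols, libraries were made from poly-A RNA with a dUTP strand-marking method and sequenced on a DNBSEQ-G400. The submitters' processing notes name STAR 2.7.10b, featureCounts, limma, DESeq2 and hg38, without saying which step used which. No annotation, strand setting or gene filter was stated in the sources used here. What the authors deposited is a matrix of variance-stabilised expression on a log2 scale, 37097 lines long. A single line lacked a gene name (0.00216% of a library's reads at most) and was dropped. The smallest value was 5.45 log2. Undoing the transformation returned whole reads, within 0.01, for 100% of the values, and dividing them by size factors of 0.892 to 1.10 gave normalised reads. A chi-square test for copied libraries found at least 2.37 per gene between libraries of a group.

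The 17755 genes with a mean at least 0.5 above the lowest value entered a linear model (limma 3.58.1 under R 4.3.3) of all 18 libraries, with a mean per group and a variance trend. P-values were adjusted by Benjamini-Hochberg within each of 9 comparisons (7 of 2 groups, 2 interactions) and called below 0.05, with no correction over comparisons. The fit was tested on simulated counts in which 200 genes were changed by known folds. The members and lists were chosen with earlier results of these data known. The 9 members were named whatever their values, list genes by the lowest adjusted p (at most 2 per direction), like genes by the 3 highest correlations, leaving out clone-type names, and neighbours by starts within 2000 bases on the opposite strand. Not every list gene the rule allows is printed. Ratios were chosen after values were seen. Positions came from GENCODE 29, promoters from RefSeq GRCh38.p14, which held 8 of the 9 members. TASOR was matched by gene ID. The lists were KRAB zinc finger genes, H3K9 methyltransferases and SETDB1 cofactors, H3K9 demethylases, NuRD subunits, TRIM28 relatives and regulators, HP1-binding proteins, HUSH-associated and MORC genes, and other chromodomain CBX and CDY-like genes. The list named H3K9 demethylases held KDM1A, KDM3A, KDM3B, JMJD1C, KDM4A, KDM4B, KDM4C, KDM4D, KDM7A, PHF2, PHF8 and RIOX1. Alternatives were no filter, a filter at 1, quantile normalization, equal library medians, no variance trend, array quality weights, only the groups compared, a replicate block, voom on the recovered counts, and leaving out each library.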

Additional observations from a re-analysis of the deposited data

Results flagged for a closer look

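For 4 results, the effect of methionase differed between conditions by a test of the difference itself. CBX1 had an interaction of -0.2477 log2 between methionase and Vps34-IN1, made of -0.10 log2 under the inhibitor and 0.15 log2 in DMSO. With quantile normalization it was -0.14 log2 and not called (limma adjusted p = 0.1808). Between methionase and time CBX1 had an interaction of 0.2618 log2, made of 0.15 log2 at 24 h and -0.11 log2 at 12 h. With quantile normalization that was 0.16 log2 and not called (limma adjusted p = 0.1725). PPHLN1 had an interaction of 0.2419 log2 between methionase and Vps34-IN1, made of 0.004 log2 under the inhibitor and -0.24 log2 in DMSO. TASOR had an interaction of -0.4576 log2 between methionase and time, made of -0.44 log2 at 24 h and 0.02 log2 at 12 h. The TASOR interaction was called under all 21 alternatives. The CBX1 interaction with Vps34-IN1 was not called under 11 of 21, including without methionase replicate 1 or 2 with DMSO, methionase replicate 1 or 2 with Vps34-IN1, vector replicate 1 or 2 with DMSO, or vector replicate 1 with Vps34-IN1 (limma adjusted p = 0.05513 to 0.08693). The CBX1 interaction with time was not called under 13 of 21, including without any one of 9 libraries (limma adjusted p = 0.05495 to 0.1318), namely each of the vector libraries at 24 h, vector replicates 1 and 2 at 12 h, and methionase replicates 1 and 2 at each time. The PPHLN1 interaction was not called under 16 of 21, including without any one of 9 libraries (limma adjusted p = 0.05626 to 0.1308), namely each of the methionase and vector libraries with DMSO, methionase replicate 1 with Vps34-IN1, and vector replicates 1 and 2 with Vps34-IN1.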

How the results depend on the processing

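Over 81 differences of the 9 genes and their alternatives, 1161 of 1323 refits kept direction and call, 98 lost a call, 20 gained one and 44 changed sign, none of them for a called member. Of the 26 calls, 11 held in all refits. They were TRIM28 with methionase at 24 h in DMSO and under Vps34-IN1 and at 24 h against 12 h in methionase cells; TASOR with methionase at 24 h in DMSO, with Vps34-IN1 in vector cells, with time in methionase cells and in the interaction with time; PPHLN1 with methionase in DMSO and with time in both; and CBX3 with time in vector cells. Only the cause of changes that a setting builds in (fewer genes or samples) is known, and no other cause was tested. With 3 libraries a group, small differences of low precision cannot be resolved.

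For methionase at 12 h, the 385 called genes became 178 with no filter, 185 with quantile normalization, 247 with no variance trend, 2135 with quality weights and 1561 with only the groups compared, and 18 to 238 without any one of the 6 libraries. Members called were 2 with quality weights and 1 with only the groups compared. For methionase at 24 h in DMSO, members called were 3 with no filter or no variance trend and 3 to 4 without 1 library, against 5. Under Vps34-IN1 the 2 members became 1 with quantile normalization and 1 to 2 without 1 library. For the inhibitor, the 3 members in vector cells (2 higher, 1 lower) became 5 with quantile normalization (1 higher, 4 lower). In methionase cells 1408 genes became 625 with quality weights, 296 with only the groups compared and 860 to 1526 without 1 library, and the 2 members became 0 with no filter, equal medians, no variance trend, quality weights or only the groups compared, 1 with voom, and 0 to 3 without 1 library. For 24 h against 12 h in vector cells, 2039 genes became 1290 with no filter, 5186 with quality weights, 3507 with only the groups compared and 798 to 1696 without 1 library (798 without vector replicate 1 at 24 h, 833 without vector replicate 3 at 12 h), and the 6 members 3 to 6. For methionase by Vps34-IN1, the 2 members became 0 with no filter, no variance trend or only the groups compared, 1 with equal medians, quality weights or voom, 3 with the stricter filter (1 higher, 2 lower) or quantile normalization (3 higher), and 0 to 2 without 1 library. For methionase by time, 2071 genes became 3617 with quality weights and 1276 to 2413 without 1 library, and the 2 members 1 with no filter or no variance trend, 3 with quality weights and 1 to 2 without 1 library (quantile normalization gave 0 higher and 2 lower).

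Of the 15 pairs with the same replicate number, 7, 4 and 2 had deviations correlated above 0.1 for replicates 1, 2 and 3. Pairs with different numbers were not set beside them, so whether the numbers pair the libraries cannot be told. With the replicate block, members called became 1 for the inhibitor in methionase cells, 1 for methionase by Vps34-IN1, 1 for methionase by time and 4 for methionase at 24 h in DMSO.

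Equal library medians moved the share of called genes that were higher to 61.6% from the 50.5% reported for the inhibitor in vector cells, 59.8% from 37.1% in methionase cells, 27.7% from 40.1% for time in vector cells and 66.5% from 45.7% for methionase by time, and quantile normalization to 48.6% from 31.4% for methionase at 12 h. By less than 10 points, equal medians also turned the majority of called genes to higher for methionase at 24 h in DMSO (55.8% from 46.2%) and under Vps34-IN1 (52.2% from 43.9%) and for time in methionase cells (54.3% from 46.4%).

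With quantile normalization the log2 difference was 0.0468 for ATF7IP with methionase at 12 h, 0.0073 for ATF7IP with methionase under Vps34-IN1, 0.0012 for MPHOSPH8 with the inhibitor in methionase cells, 0.0577 for MORC2 with time in vector cells, -0.0082 for CBX1 with time in methionase cells, and 0.0865 for CBX3 and 0.1134 for CBX5 in methionase by Vps34-IN1, and -0.0264 for HNRNPA1 with methionase at 24 h in DMSO, where 0.23 had been called. In methionase by Vps34-IN1 it was 0.0095 for HNRNPA2B1 and 0.0615 for HNRNPA1. With equal medians it was -0.0128 for CBX5 and -0.0016 for TASOR with methionase at 12 h, 0.0019 for CBX3 with the inhibitor in vector cells, 0.0153 for MPHOSPH8 and 0.0108 for CBX1 with it in methionase cells, and 0.0048 for CBX5 with time in methionase cells. With quality weights it was 0.0010 for ATF7IP with methionase at 12 h, -0.0173 for PPHLN1 with methionase under Vps34-IN1, 0.0005 for MORC2 with time in vector cells and 0.0016 for CBX3 in methionase by Vps34-IN1. Without 1 library, the range was -0.0425 to 0.0455 for CBX5, -0.0086 to 0.0559 for TASOR and -0.0643 to 0.0747 for ATF7IP with methionase at 12 h, -0.0434 to 0.0519 for PPHLN1 and -0.0793 to 0.1156 for MORC2 with methionase under Vps34-IN1, -0.0494 to 0.0197 for MPHOSPH8 and -0.0272 to 0.0844 for TRIM28 with the inhibitor in methionase cells, -0.0262 to 0.0271 for MORC2 with time in vector cells, -0.0075 to 0.0811 for CBX1 and -0.0815 to 0.0464 for CBX5 with time in methionase cells, and -0.1118 to 0.0426 for CBX3 and -0.0801 to 0.0743 for CBX5 in methionase by Vps34-IN1.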
